A study of Mus musculus with 9 samples.

Results

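The 9 genes described here encode chemokine receptors: Ccr1, Ccr2, Ccr7, Ccr9, Cxcr3, Cxcr4, Cxcr5, Cxcr6 and Cx3cr1. They were taken by symbol from the 51912 genes of a count table made from sorted pre-cDCs, the precursors of conventional dendritic cells (cDCs). Their messenger RNA was measured by bulk RNA-seq in 9 libraries, 3 of WT BM, 3 of DNGR-1 KO BM, 1 of WT spleen and 2 of DNGR-1 KO spleen. DNGR-1 KO cells were Clec9aCre/Cre CD45.2, with Cre inserted in both copies of Clec9a, the gene for DNGR-1, and WT cells were BL/6 CD45.1. Both genotypes developed side by side in lethally irradiated BL/6 CD45.1/2 hosts that had received a 1:1 mixture of their BM, without further treatment, and each library held cells sorted from a pair of mice as lineage-negative CD43+ CD135+ cells. The source names of the WT samples give CD45.1, but another label field gives CD45.2. CD45.1 is used here, as in the study's description. On that reading the CD45 allele and the genotype always go together and cannot be told apart in these libraries. By the study's description the hosts were fewer than separate pairs for every library would need, so libraries of different groups shared hosts, and which did is given by no label beyond the replicate numbers. The p-values measure the spread between these libraries. Values with the replicate number as a block are given where they change a reported receptor call. For ligand and signalling genes only the counts of calls with the block are given.

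Chemokine receptors are 7-transmembrane proteins that couple to inhibitory G proteins and steer leukocytes along gradients of small secreted chemokines. In BM, CXCR4 holds progenitors near stromal cells that secrete CXCL12, whereas CCR2 lets monocytes and their relatives leave for the blood. In lymphoid tissue, CCR7 guides cells to T cell zones, CXCR5 guides cells to follicles, and CXCR3 and CXCR6 are typical of activated and memory T cells and NK cells. The comparisons asked whether these genes differed between DNGR-1 KO and WT pre-cDCs and between spleen and BM, since the study used these samples to look for programmes of migration.

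The libraries held 17103806 to 23722298 counts. Before TMM scaling, 3 counts thus correspond to 0.126 to 0.175 CPM (counts scaled to library size), which covers counting error only. Levels elsewhere are in CPM after TMM scaling. Clec9a had 905 to 1766 counts in WT BM, 2459 in WT spleen and at most 1 in each DNGR-1 KO library, so every library matched its genotype label. All 8 pre-cDC markers (Flt3, Itgax, Zbtb46, Irf8, Kit, Spn, Csf2rb and Cd74) had more than 3 counts in every library. Markers of other cells were also present, and they differed between tissues. The summed level of 9 T cell markers was 2.13 to 16.6 CPM in BM and 1085, 1467 and 4057 CPM in WT spleen and DNGR-1 KO spleen samples 1 and 2, although CD3 was in the lineage cocktail. The summed level of 4 erythroid markers was 308 to 5252 CPM in BM and 43.6 to 82.8 CPM in spleen. As bulk libraries hold RNA of all sorted cells, fewer cells of a type and less RNA per cell cannot be told apart.

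Of the 9 genes, 6 lie on chromosome 9 of GRCm38, and Ccr7 lies on chromosome 11, Cxcr3 on X and Cxcr4 on chromosome 1. Ccr9 (chr9:123678439-123784330), Cxcr6 (chr9:123806475-123811760), Ccr1 (chr9:123962124-123968692) and Ccr2 (chr9:124101950-124113557) are neighbours in one cluster. The RefSeq promoter table of GRCm38.p6 had an entry for 7 of the 9 genes. The 250 bases before the RefSeq start site are shown 5′ to 3′ for the gene that was lower in spleen (Cxcr4), for 2 genes that were higher in spleen (Cxcr3 and Cxcr6) and for the gene whose BM libraries separated by genotype (Ccr1). Capitals mark 4 motifs, each searched on both strands. The first is the GC box, spelled GGGCGG, which binds Sp1-like factors. The next is the TATA box, spelled TATAAA, near which transcription starts. The others are cores bound by leukocyte factors, TGTGGT for RUNX proteins and GAGGAA for PU.1 and related ETS proteins.
Cxcr4, chr1:128592300-128592549, minus strand: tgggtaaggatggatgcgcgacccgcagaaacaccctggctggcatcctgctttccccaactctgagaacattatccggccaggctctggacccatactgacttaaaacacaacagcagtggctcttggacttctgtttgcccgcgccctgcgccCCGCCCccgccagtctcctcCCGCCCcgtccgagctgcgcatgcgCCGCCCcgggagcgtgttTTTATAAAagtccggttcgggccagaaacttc
Cxcr3, chrX:101734148-101734397, minus strand: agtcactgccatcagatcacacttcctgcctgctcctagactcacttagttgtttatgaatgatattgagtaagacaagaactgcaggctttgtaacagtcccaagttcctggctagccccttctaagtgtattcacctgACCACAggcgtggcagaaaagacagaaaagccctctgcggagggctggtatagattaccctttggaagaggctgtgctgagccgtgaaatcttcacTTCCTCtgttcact
Cxcr6, chr9:123806227-123806476, plus strand: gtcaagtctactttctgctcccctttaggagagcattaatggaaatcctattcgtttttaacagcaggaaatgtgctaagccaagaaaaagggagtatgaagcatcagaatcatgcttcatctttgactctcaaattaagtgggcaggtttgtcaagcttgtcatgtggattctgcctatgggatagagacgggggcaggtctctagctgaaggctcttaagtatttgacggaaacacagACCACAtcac
Ccr1, chr9:123968693-123968942, minus strand: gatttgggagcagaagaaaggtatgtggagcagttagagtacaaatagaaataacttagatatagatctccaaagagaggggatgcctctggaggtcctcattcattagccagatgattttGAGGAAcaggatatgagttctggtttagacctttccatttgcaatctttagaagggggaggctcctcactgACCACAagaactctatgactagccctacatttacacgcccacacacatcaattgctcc
The Cxcr4 sequence held 19 CpG dinucleotides, at percentile 81.2 of 32851 mouse promoters, whereas Cxcr3 and Cxcr6 held 3 each and Ccr1 held 1, below the median of 6. Cxcr4 had 3 GC boxes, a motif present in 32.7% of all promoters, and a TATA box, present in 12.4%, where matches on both strands overlapped. A RUNX core was found in Cxcr3, Cxcr6, Ccr1 and Cx3cr1, and 14% of all promoters have one. A PU.1/ETS core was found in Cxcr3 and Ccr1 and in 23.3% of all promoters. These matches describe letters and were not tested for binding.

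Ccr2 and Cx3cr1 were the most abundant of the 9 genes in BM. Per kilobase of exon, the level of Ccr2 in WT BM was 101 ± 45.4 (SD, n = 3) CPM per kb, and that of Cx3cr1, the receptor of the membrane-bound chemokine CX3CL1, was 63.3 ± 15.6. These 2 levels differed by less than the spread of Ccr2. Cxcr4 followed with 10.3 ± 1.78 and Ccr1, a receptor of CCL3 and other inflammatory chemokines, with 9.01 ± 0.918, levels that were within one SD of each other. Cxcr3 had 5.58 ± 2.83 and Ccr7 had 2.81 ± 1.88 CPM per kb, with overlapping spreads. Ccr9 (0.527 ± 0.137) and Cxcr6 (0.321 ± 0.322) were low and overlapped. Cxcr5 was not counted in any BM library, which allows up to 3 counts, or 0.137 to 0.177 CPM after TMM scaling. In DNGR-1 KO BM, Ccr2 (168 ± 47.03) and Cx3cr1 (87.8 ± 19.4) again led, and Ccr1 (19.1 ± 6.68) had the third highest mean. In WT spleen, a single library, Ccr2 (248) and Cx3cr1 (82.7) also led, followed by Ccr7 (41.7), Ccr1 (31.3), Cxcr3 (29.6), Cxcr6 (9.03), Cxcr4 (3.17), Ccr9 (3.0) and Cxcr5 (0.940). In DNGR-1 KO spleen the means had another order, with Ccr2 at 137 ± 7.06 (SD, n = 2), Ccr7 at 109 ± 71.3, Cxcr3 at 101 ± 63.3, Cxcr6 at 56.6 ± 5.49 and Cx3cr1 at 53.4 ± 8.51 CPM per kb. The spreads of Ccr7 and Cxcr3 each covered the means of Ccr2, Cxcr6 and Cx3cr1, so this order is not settled. DNGR-1 KO spleen sample 2 was above sample 1 by 2.72-fold in Ccr7 and 2.59-fold in Cxcr3. Cxcr4, at 1.28 ± 1.07, was near the low end, whereas in WT BM it had the third highest mean, and Ccr9 had 1.01 ± 0.359.

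**Figure D1:**
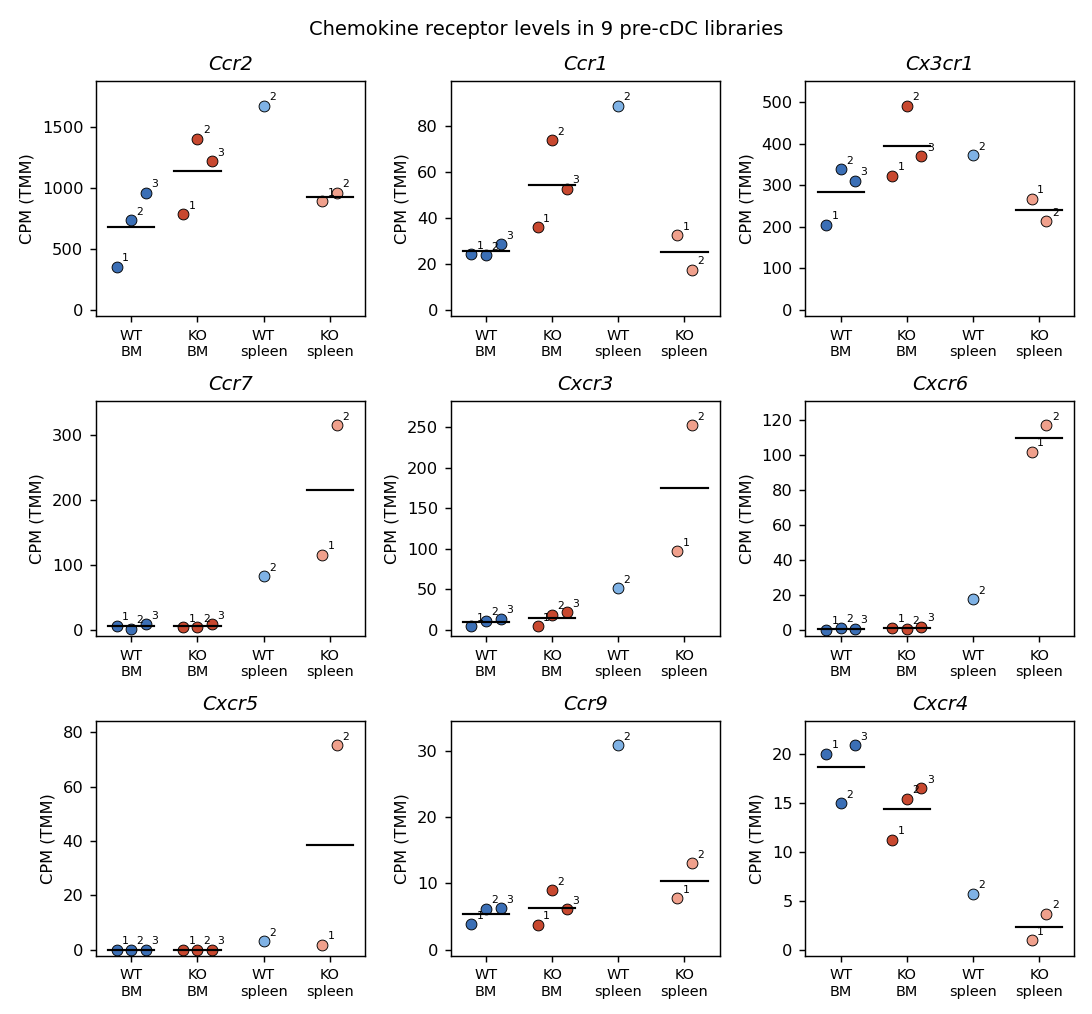
Level of each receptor gene in CPM (counts scaled to library size by TMM, linear axes that differ between panels) in WT and DNGR-1 KO (KO) BM and spleen, 1 point per library with its replicate number, and the group mean as a line where a group has more than 1 library. Ccr7, Cxcr3, Cxcr6 and Cxcr5 are higher in all 3 spleen libraries than in all 6 BM libraries, and Cxcr4 is lower. The share of all genes that separate between tissues in this way was not counted.

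None of the 9 genes passed the threshold between DNGR-1 KO and WT BM. In edgeR's quasi-likelihood test over 13016 genes (Benjamini-Hochberg adjustment, threshold 0.05), 0 of the 8 receptor genes tested were called, against 0.0307% of all genes, and 1 had an unadjusted p under 0.05, as did 3.83% of all genes. DESeq2 and limma-voom also called 0 of them. Of the 8 log2 fold changes, 7 were positive, with a median of 0.54 beside -0.0045 over all genes.

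Ccr1 was the receptor with the largest separation between genotypes in BM. Its level was 24.3, 23.8 and 28.5 CPM in WT and 36.0, 73.7 and 52.6 CPM in DNGR-1 KO BM samples 1, 2 and 3. Every DNGR-1 KO library was above every WT library, a pattern that 1 of the 8 receptor genes showed and that 5.12% of all genes showed. The log2 fold change was 1.07 (standard error 0.30, 95% interval 0.41 to 1.73), with an unadjusted p of 0.00498 and an adjusted p of 0.861 in edgeR's quasi-likelihood test, and an exact permutation test gave p = 0.1, two-sided, the smallest that 3 against 3 libraries allow. Over 16 alternatives its log2 fold change ran from 0.59 to 1.3, and its adjusted p stayed between 0.177 and 1.

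Ccr2, which drives exit of monocytes from BM, had 354, 737 and 961 CPM in WT and 785, 1405 and 1218 CPM in DNGR-1 KO BM. WT sample 3 was above DNGR-1 KO sample 1, so the groups overlapped. The log2 fold change was 0.72 (standard error 0.36, 95% interval -0.078 to 1.52, adjusted p = 0.861 in edgeR's quasi-likelihood test). Cx3cr1, a marker of monocytes and of cDC precursors, had 206, 339 and 312 CPM in WT and 323, 492 and 370 CPM in DNGR-1 KO BM. Here WT sample 2 was above DNGR-1 KO sample 1. Cx3cr1 had a log2 fold change of 0.46 (standard error 0.26, 95% interval -0.12 to 1.04, adjusted p = 0.861 in the same edgeR test).

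The levels of these 3 receptors moved with markers of several cell types in the BM libraries. The erythroid markers (Klf1, Car1, Epor and Tfrc) summed to 5252, 3287 and 2623 CPM in WT and 2636, 308 and 1108 CPM in DNGR-1 KO BM, with Car1 the most abundant in every library except DNGR-1 KO sample 2, where it was Tfrc. Tfrc alone, which other dividing cells also express, was lowest in WT sample 1 (83.2 CPM) and had 156 to 182 CPM in the other BM libraries. DNGR-1 KO samples 2 and 3, the lowest in the sum of erythroid markers, had the highest Ccr1, Ccr2 and Cx3cr1, and WT sample 1, the highest in that sum, had the lowest Ccr2 and Cx3cr1. The 8 monocyte and macrophage markers summed to 1534, 1587 and 1884 CPM in WT and 2102, 2689 and 2357 CPM in DNGR-1 KO BM. Of these, 5 or 6 had more than 3 counts in each BM library, mostly Ly6c2, Csf1r and F13a1, and Vcan was at 0. The 6 cDC2 markers summed to 417, 386 and 483 CPM in WT and 514, 763 and 704 CPM in DNGR-1 KO BM. Both sums were thus higher in every DNGR-1 KO than in every WT library. The part of erythroid, monocyte and cDC2 RNA in the differences was not tested. As a further view chosen after these values were seen, levels were divided by that of Flt3, which encodes CD135, the surface protein used in the sort. Per 100 CPM of Flt3, Ccr1 was at 8.68, 6.29 and 5.57 in WT and at 9.31, 13.5 and 11.1 in DNGR-1 KO BM. Ccr2 was at 127, 195 and 188 in WT and at 203, 257 and 257 in DNGR-1 KO BM on this scale. Both genes were thus higher in every DNGR-1 KO than in every WT library, as were 2.58% of all genes, while Cx3cr1 (60.8 to 89.4 in WT, 78.1 to 90.02 in DNGR-1 KO) overlapped. Cxcr4 separated the other way, with 7.16, 3.96 and 4.08 in WT and 2.91, 2.82 and 3.48 in DNGR-1 KO BM, as did 2.59% of all genes. These separations are given for Flt3 as divisor only. Itgax, another pre-cDC marker, was at 74.1, 207 and 241 CPM in WT and 212, 340 and 227 CPM in DNGR-1 KO BM. Relative to Itgax, WT sample 1 was above DNGR-1 KO sample 1 in both Ccr1 and Ccr2, so the genotypes overlapped.

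**Figure D2:**
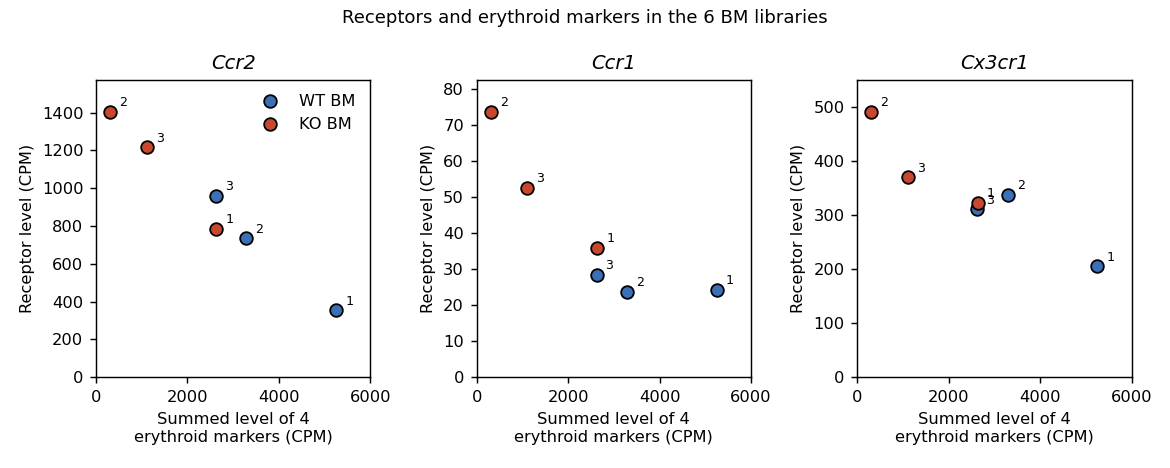
Level of Ccr2, Ccr1 and Cx3cr1 (CPM, linear axes from 0) against the summed level of 4 erythroid markers (CPM) in the 6 BM libraries, 1 numbered point per library, blue for WT and red for DNGR-1 KO (KO). DNGR-1 KO libraries 2 and 3, with 308 and 1108 CPM of erythroid markers, have the highest levels of all 3 receptors.

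In CPM, the other receptors overlapped between genotypes in BM. Cxcr4, which keeps progenitors in BM, had 20.04, 14.98 and 20.9 CPM in WT and 11.2, 15.4 and 16.5 CPM in DNGR-1 KO BM. WT sample 2 lay below DNGR-1 KO samples 2 and 3. Its log2 fold change was -0.39 (standard error 0.29, 95% interval -1.03 to 0.25, adjusted p = 0.861 in edgeR's quasi-likelihood test), the only negative one of the 8, and it was negative in all 15 alternatives that tested it, from -0.52 to -0.15. Cxcr4 lies in the chromosome 1 interval around Ptprc, the gene for CD45, that the study scored for the difference in CD45 background. Cxcr3 had a log2 fold change of 0.62 (standard error 0.58), with 4.14 to 13.5 CPM in WT and 4.60 to 21.7 CPM in DNGR-1 KO BM. Ccr7 (0.04, standard error 0.61), Ccr9 (0.20, standard error 0.44) and Cxcr6 (0.80, standard error 1.14) had adjusted p-values of 0.907 to 0.99 in the same edgeR test. Cxcr6 had 0 to 35 counts per BM library, so a difference in its level was not detectable at this depth unless large.

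**Figure D3:**
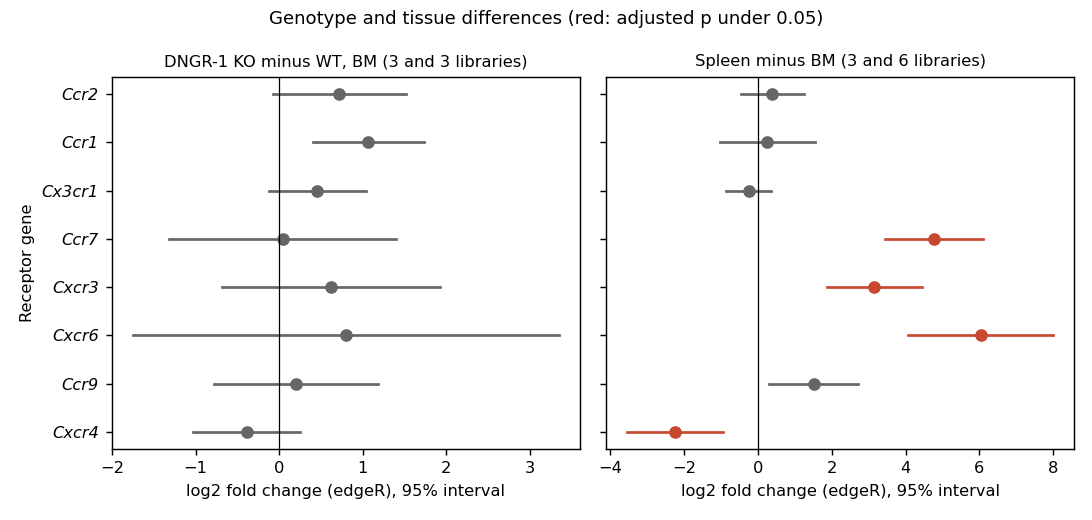
Log2 fold change of each receptor gene from edgeR with its 95% interval, DNGR-1 KO minus WT in BM (left) and spleen minus BM with genotype as a covariate (right), with red for an adjusted p under 0.05. No interval on the left is red, and Ccr7, Cxcr3 and Cxcr6 (positive) and Cxcr4 (negative) are red on the right. Cxcr5 is not drawn because all BM libraries had 0 counts.

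Between BM and spleen the receptor genes differed more. With genotype as a covariate, 2479 of 15813 genes (15.7%) passed the threshold in edgeR's quasi-likelihood test. Cxcr5 had 0 counts in BM and entered this test only through the spleen libraries in which it was counted, so nothing is read from its call and it is described by its levels. Of the other 8 receptor genes 4 passed. Ccr7, Cxcr3 and Cxcr6 rose in spleen, where 5.98% of all genes did, and Cxcr4 fell, as did 9.7% of all genes. Without DNGR-1 KO BM sample 1, 1584 of all genes passed, and with the replicate block 1004 did, Ccr7, Cxcr3 and Cxcr6 among them. The median log2 fold change of the 8 was 0.95, beside -0.21 over all genes. The share of all genes whose spleen and BM libraries did not overlap was not counted, so such separation describes each receptor gene alone.

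Ccr7, the receptor for CCL19 and CCL21, had 6.09, 1.61 and 8.98 CPM in WT BM, 4.14, 4.13 and 9.01 CPM in DNGR-1 KO BM, 82.5 CPM in WT spleen and 116 and 316 CPM in DNGR-1 KO spleen samples 1 and 2. The lowest spleen library was 9.16-fold above the highest BM library. The log2 fold change was 4.77 (standard error 0.59, adjusted p = 9.17e-04 in edgeR's quasi-likelihood test), and an exact permutation test of the 9 libraries gave p = 0.0119, two-sided, the smallest that 84 splits allow. Cxcr3, the receptor for CXCL9 and CXCL10, had 4.14, 11.3 and 13.5 CPM in WT BM, 4.60, 18.6 and 21.7 CPM in DNGR-1 KO BM, 51.3 CPM in WT spleen and 97.2 and 252 CPM in DNGR-1 KO spleen. All spleen libraries were above all BM libraries, the lowest by 2.37-fold over the highest BM library. For Cxcr3, edgeR gave a log2 fold change of 3.15 with a standard error of 0.57 (adjusted p = 0.00618).

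Cxcr6, the receptor for CXCL16, had 0, 1.24 and 0.616 CPM in WT BM, 1.09, 0.443 and 1.75 CPM in DNGR-1 KO BM, 17.4 CPM in WT spleen and 102 and 117 CPM in DNGR-1 KO spleen. Spleen and BM did not overlap, with the lowest spleen library 9.95-fold above the highest BM library. For Cxcr6, the log2 fold change was 6.03 (standard error 0.88, adjusted p = 0.00205 in edgeR's quasi-likelihood test). Ccr7, Cxcr3 and Cxcr6 passed the threshold in every alternative that tested them, 20, 20 and 19 settings in turn, with adjusted p-values of at most 0.0108, 0.0406 and 0.0259.

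Cxcr5, the receptor for the follicular chemokine CXCL13, had 0 counts in all 6 BM libraries, 53 counts in WT spleen and 33 and 1779 in DNGR-1 KO spleen. The lowest spleen library was at least 10.3-fold higher than 3 counts in a BM library. DNGR-1 KO spleen sample 2, with 75.2 CPM, was 41.1-fold above DNGR-1 KO spleen sample 1, with 1.83 CPM, and WT spleen was at 3.13 CPM. The B cell gene Pax5 had 0 CPM in all 3 spleen libraries, and Ms4a1, which encodes CD20, had 0, 11.8 and 9.39 CPM. Of the other B cell markers, Cd79a had 0.0591, 2.72 and 0 CPM, whereas Cd79b had 36.9, 31.98 and 25.3 CPM and Ighm had 955, 669 and 905 CPM. The 5 markers summed to 716 to 992 CPM in spleen and to 895 to 1413 CPM in BM, where Cxcr5 had 0 counts, and their part was not tested.

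In the spleen libraries these 4 receptors were measured in the presence of T and NK cell transcripts. The 9 T cell markers were Cd3d, Cd3e, Cd3g, Cd247, Lck, Trac, Cd8a, Cd4 and Il7r and all had more than 3 counts in every spleen library except Cd4, which had 0 in WT spleen. Cd3e was at 0 to 0.455 CPM in BM and at 56.5, 55.2 and 365 CPM in spleen. Per 1000 CPM of summed T cell markers, Ccr7 was at 76.1 in WT spleen and at 79.1 and 77.8 in DNGR-1 KO spleen, a ratio of highest to lowest of 1.04, while Ccr7 itself differed 3.82-fold. Of the 945 genes that rose in spleen, 2 had a ratio of 1.04 or less, Ccr7 and Tnfsf8, a T cell ligand of the TNF family, and the marker Cd3g came next with 1.06. The markers themselves varied against their sum, by 1.23 for Lck and Il7r, 1.26 for Cd3d, 1.31 for Trac, 1.89 for Cd8a, 2.39 for Cd3e and 2.89 for Cd247, and Cd4 was at 0 in WT spleen. Cxcr3 was at 47.3, 66.3 and 62.1 per 1000 CPM of T cell markers, a ratio of 1.40 where the level itself differed 4.91-fold, and 5.82% of the 945 genes had a ratio that low or lower. Cxcr6 (16.1, 69.4 and 28.8) and Cxcr5 (2.89, 1.25 and 18.5) varied 4.32-fold and 14.9-fold. The 8 NK cell markers summed to 78.05 to 218 CPM in BM and to 1073, 973 and 1492 CPM in spleen. Most of the spleen sums was Klrd1 (513, 450 and 578 CPM) and Klrk1 (510, 381 and 486 CPM), which were also counted in every BM library. Ncr1 was at 0, 15.6 and 10.7 CPM and Eomes at 22.8, 13.1 and 62.5 CPM in spleen. NK1.1 was in the lineage cocktail, and its gene Klrb1c was at 0, 14.8 and 0 CPM in spleen. The 7 markers of mature DCs summed to 20.3 to 56.4 CPM in BM and to 215, 252 and 135 CPM in spleen, with Ccl17 at 0 and Ccl22 at 0 to 0.0423 CPM in spleen. Of the other mature DC markers, Il4i1 (log2 fold change 3.61, adjusted p = 0.00144), Relb (2.43, 0.00299), Cd83 (3.56, 0.0126) and Cd40 (1.13, 0.0486) rose in spleen in edgeR's test. Fscn1 did not pass in that test (2.11, 0.423). The part of T cell, NK cell and mature DC RNA in the spleen levels of these receptors was not tested.

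**Figure D4:**
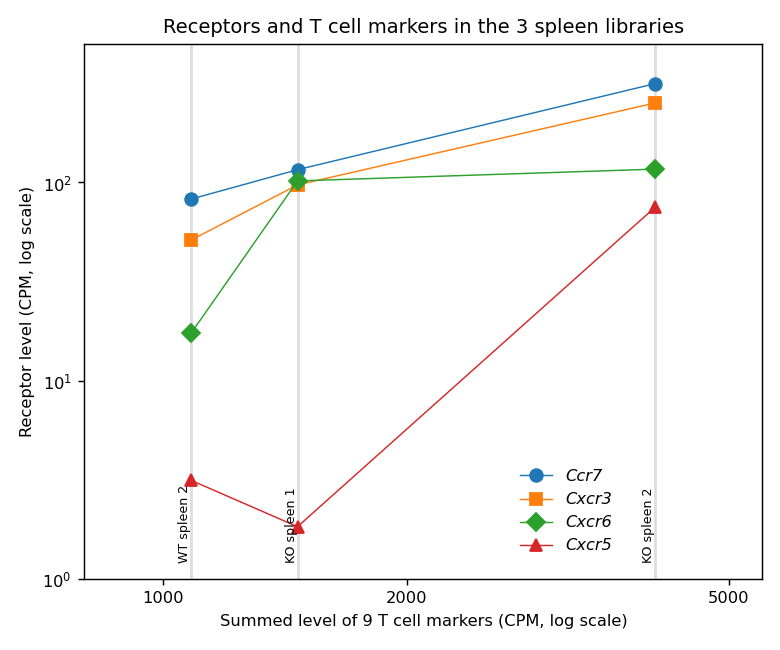
Level of Ccr7, Cxcr3, Cxcr6 and Cxcr5 against the summed level of 9 T cell markers, both in CPM on log scales, in the 3 spleen libraries (vertical lines, WT sample 2 and DNGR-1 KO samples 1 and 2), with lines joining the points of one gene. Ccr7 runs from 82.5 to 316 CPM in proportion to the markers, and Cxcr5 does not.

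Cxcr4 was the only one of the 9 receptor genes that fell in spleen. It had 15.0 to 20.9 CPM in WT BM, 11.2 to 16.5 CPM in DNGR-1 KO BM, 5.74 CPM in WT spleen and 0.944 and 3.68 CPM in DNGR-1 KO spleen, from 97, 17 and 87 counts. All spleen libraries were below all BM libraries. The log2 fold change was -2.25 (standard error 0.58, adjusted p = 0.0277 in edgeR's quasi-likelihood test, exact permutation p = 0.0119). Of 20 alternatives 13 passed the threshold and all were negative, from -2.64 to -0.65. The call was lost without WT BM sample 1 (adjusted p = 0.0511) or 3 (0.0640), without DNGR-1 KO BM sample 1 (0.0570), 2 (0.0608) or 3 (0.0602), with the replicate block (0.0916) and in DNGR-1 KO libraries alone (0.101). The erythroid markers, and 7 neutrophil lineage markers that summed to 830 to 2589 CPM in BM and to 0 to 0.888 CPM in spleen, were also lower in spleen. Ly6G and Ter119 were in the lineage cocktail. Most of the neutrophil lineage sum in BM was Mpo (694 to 2138 CPM), and Ly6g was at 0 to 0.946 CPM there. The part of erythroid and neutrophil lineage RNA in the level of Cxcr4 was not tested.

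Ccr1, Ccr2, Cx3cr1 and Ccr9 did not pass the threshold between tissues. Ccr9, the receptor for CCL25, had 3.73 to 8.95 CPM in BM, 30.8 CPM in WT spleen and 7.77 and 12.98 CPM in DNGR-1 KO spleen. Its log2 fold change was 1.51 (standard error 0.54, adjusted p = 0.0878 in edgeR's quasi-likelihood test, exact permutation p = 0.0238), and it passed with DESeq2 (adjusted p = 0.0159), with at least 10 counts required in every library (0.0280) and without DNGR-1 KO spleen sample 1 (0.0376). Ccr1 (0.25, standard error 0.58, 95% interval -1.04 to 1.54), Ccr2 (0.39, standard error 0.39, -0.47 to 1.26) and Cx3cr1 (-0.25, standard error 0.28, -0.87 to 0.37) had adjusted p-values of 0.52 to 0.803. The log2 fold changes of Ccr1 and Ccr2 were -1.09 and -0.28 without the WT spleen library.

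Ccr1 was higher in the WT spleen library than in WT BM and lower in DNGR-1 KO spleen than in DNGR-1 KO BM, a comparison in which WT spleen is a single library with no spread of its own. It was at 88.7 CPM in WT spleen, 3.47-fold above the WT BM mean of 25.5 ± 2.60 (SD, n = 3), and at 32.5 and 17.5 CPM in DNGR-1 KO spleen, where the mean was 0.463 of the DNGR-1 KO BM mean of 54.1 ± 18.9 (SD, n = 3). WT spleen was thus the highest of the 9 libraries and DNGR-1 KO spleen sample 2 the lowest. The genotype by tissue term was -2.90 on the log2 scale (standard error 0.61, adjusted p = 0.0222 in edgeR's quasi-likelihood test), and Ccr1 was the only receptor called, where 7.01% of all genes were called. The term of Cxcr5 could not be estimated because it had 0 counts in BM. Some markers of cDC2s and monocytes had negative terms too and others did not. The cDC2 marker Cd209a had 1185 CPM in WT spleen, 501 and 500.3 CPM in DNGR-1 KO spleen, 262 to 326 CPM in WT BM and 347 to 534 CPM in DNGR-1 KO BM (term -1.88, adjusted p = 0.0193 in the same edgeR test), and the cDC2 marker Sirpa had a term of 0.59 (adjusted p = 0.758). Of the monocyte markers, Csf1r had a term of -2.12 (adjusted p = 0.104), F13a1 of -0.23 and Ly6c2 of 0.75 (adjusted p = 0.496). The 8 monocyte and macrophage markers summed to 1478 CPM in WT spleen and 1199 and 2144 CPM in DNGR-1 KO spleen, and the 6 cDC2 markers to 1563, 715 and 878 CPM. Their part in the values of Ccr1 was not tested. The test assumes that the single WT spleen library varies like the other groups. The call was lost with the replicate block (adjusted p = 0.123), with limma-voom (0.0671), without WT BM sample 1 (0.0504), 2 (0.0649) or 3 (0.0510) and without DNGR-1 KO BM sample 2 (0.0579) or 3 (0.0551). The terms of Ccr2 (-1.59, standard error 0.63, adjusted p = 0.209) and Cx3cr1 (-1.10, standard error 0.45, adjusted p = 0.225) were also negative in the same edgeR test, and the median term over all genes was 0.35.

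Within spleen, 1 WT library was set against 2 DNGR-1 KO libraries, so these ratios have no replicate check and no test. The libraries also differed in 4 Y-linked genes, which summed to 0 counts in WT spleen and to 1193 and 1807 in DNGR-1 KO spleen. In BM the sums were 0 to 1 in WT and 341, 9 and 0 in DNGR-1 KO. The part of donor sex was not tested in these ratios, in the genotype by tissue term or in the tissue and BM comparisons. Cxcr6 was 5.84-fold and 6.70-fold, Cxcr3 1.89-fold and 4.91-fold, and Ccr7 1.41-fold and 3.82-fold higher in DNGR-1 KO samples 1 and 2 than in WT spleen. The summed T cell markers were likewise higher in both DNGR-1 KO libraries (1467 and 4057 CPM) than in WT spleen (1085 CPM), and their part was not tested. Ccr1 was at 0.367 and 0.198, Ccr9 at 0.252 and 0.421, Ccr2 at 0.533 and 0.573, Cx3cr1 at 0.719 and 0.573, and Cxcr4 at 0.165 and 0.641 of the WT level in the same 2 libraries. The 2 DNGR-1 KO libraries themselves differed 3.90-fold in Cxcr4, 2.72-fold in Ccr7, 2.59-fold in Cxcr3 and 1.85-fold in Ccr1, and were close in Ccr2 (1.08-fold) and Cxcr6 (1.15-fold).

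Of 14 other chemokine receptor genes, 7 were tested between tissues and 2 rose in spleen, where 5.98% of all genes did. Xcr1, the receptor for XCL1 and a marker of cDC1s, had 1.0 to 9.64 CPM in BM, 104 CPM in WT spleen and 173 and 38.3 CPM in DNGR-1 KO spleen (log2 fold change 4.43, standard error 0.72, adjusted p = 0.00352 in edgeR's quasi-likelihood test). Without the targeted gene Clec9a, the other 5 cDC1 markers summed to 154, 783 and 205 CPM in these spleen libraries, so that Xcr1 and the markers were both highest in DNGR-1 KO sample 1 but were lowest in different libraries. In BM, 0 of the 5 tested passed (0.0307% of all genes), and their median log2 fold change was 0.60 beside -0.0045 over all genes.

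Of 19 chemokine ligand genes, 11 were tested between tissues. In spleen 4 rose and 0 fell, where 5.98% of all genes rose and 9.7% fell. Ccl5, a ligand of CCR1 and product of T and NK cells, had 0 to 2.28 CPM in BM, 372 CPM in WT spleen and 611 and 1506 CPM in DNGR-1 KO spleen (log2 fold change 10.16, standard error 0.71, adjusted p = 4.7e-05 in edgeR's quasi-likelihood test). Ccl4 (4.12, standard error 0.62, adjusted p = 0.00233), Ccl3 (3.19, standard error 0.71, adjusted p = 0.0151) and Cxcl16 (2.69, standard error 0.69, adjusted p = 0.0280), the ligand of CXCR6, rose in the same edgeR test, and 2 ligand genes passed with the replicate block. In BM, 0 of 8 ligand genes passed (0.0307% of all genes). Ccl9 (0.60, standard error 0.27) had an unadjusted p under 0.05 in edgeR's test, as did 3.83% of all genes. Ccl5 (5.31, standard error 1.11) had 1, 1 and 0 counts in WT BM. It entered this test only through the DNGR-1 KO libraries, so nothing is read from its p. Both genes were higher in DNGR-1 KO and were named after their values were seen. The levels of Ccl5 were 0 to 0.0591 CPM in WT and 0.689 to 2.28 CPM in DNGR-1 KO BM. Its fitted value depends on how near-zero counts are handled and is no bound.

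Of 35 genes that act below chemokine receptors, such as G protein subunits, arrestins, RGS proteins and Rap GTPases, 34 were tested between tissues. In spleen 7 rose and 0 fell, where 5.98% of all genes rose and 9.7% fell. Their median log2 fold change was 0.18 beside -0.21 over all genes. Rgs14 (log2 fold change 1.54, standard error 0.30, adjusted p = 0.00875), which limits signalling by inhibitory G proteins, Rap1b (1.01, 0.21, 0.0114) and Rap1a (0.96, 0.24, 0.0268), GTPases that activate integrins, Arrb2 (1.10, 0.29, 0.0315), which encodes beta-arrestin 2, and Rgs2 (1.184, 0.31, 0.0315) had the lowest adjusted p-values in edgeR's quasi-likelihood test. The count fell to 1 with the replicate block, to 2 when either WT BM sample 2 or the first DNGR-1 KO BM library was left out, to 3 without WT BM sample 3 and to 4 without DNGR-1 KO BM sample 3, WT spleen or DNGR-1 KO spleen sample 2. In BM, 0 of 33 passed (0.0307% of all genes) and 2 had an unadjusted p under 0.05 (3.83% of all genes). A positive log2 fold change was seen in 26, with a median of 0.29 beside -0.0045 over all genes.

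Across the 9 libraries some receptor genes had like profiles, which is a description of libraries that share tissue and T cell marker levels. The log2 CPM of Ccr7 and Cxcr5 had a Pearson correlation of 0.93 over 9 libraries, Cxcr3 and Cxcr6 0.92, Cxcr3 and Cxcr5 0.89, and Ccr7 and Cxcr3 0.89. Ccr1 and Cx3cr1 had 0.80, Ccr2 and Cx3cr1 0.71, and Ccr1 and Ccr2 0.71. Ccr9 had 0.72 with Ccr2, 0.70 with Cxcr3, 0.67 with Cxcr5 and 0.65 with Ccr7, and Ccr2 had 0.50 with Cxcr3. Cxcr4 ran against Cxcr6 (-0.90) and Ccr7 (-0.80). Among the 10995 genes that averaged 50 counts or more, the 2 with the most similar profile were Dusp2 (0.99) and Hcst (0.99) for Ccr7, 2010016I18Rik (0.98) and Gpsm3 (0.97) for Cxcr3, Eif4a2 (0.98) and Sit1 (0.98) for Cxcr6, and the T cell receptor segment Trbv19 (0.99) and Gm20069 (0.99) for Cxcr5. For Cxcr4 they were the histone gene Hist1h2ag (0.99) and the replication gene Gins3 (0.99). For the receptors that did not pass between tissues they were Anxa5 (0.96) and Atp6ap2 (0.96) for Ccr1, Nfam1 (0.98) and Sgk3 (0.98) for Ccr2, Ccdc88a (0.98) and Trim30a (0.97) for Ccr9, and Ctdsp2 (0.96) and Tiam2 (0.95) for Cx3cr1.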

How the data were processed

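RNA of sorted pre-cDCs was depleted of ribosomal RNA and sequenced by bulk RNA-seq in 9 libraries. The authors deposited expected counts per gene, 1 column per library, and a table of log2 values from a variance stabilizing transformation (VST) over all samples. The submitters' processing notes name Trimmomatic 0.36, STAR 2.5.2, RSEM 1.3.0 and DESeq2 1.18.1 in R 3.4.3 with GRCm38. Expected counts can divide reads between similar genes, and 25.6% of nonzero values were not whole. Ensembl identifiers were given symbols of GENCODE M21, which covered 51633 of 51912 genes.

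Expected counts were rounded, and edgeR 4.0.16 under R 4.3.3 was used for testing (quasi-likelihood test after filterByExpr on the 4 groups and scaling by TMM, Benjamini-Hochberg adjustment over all genes tested, threshold 0.05). The fits were DNGR-1 KO against WT in the 6 BM libraries, spleen against BM with genotype as a covariate in all 9 libraries, and the genotype by tissue interaction. Fold changes in CPM are TMM-normalized, levels between genes are per kilobase of merged exons, and log2 CPM for correlations used a prior count of 2. Exact permutation tests over libraries used log2 CPM. DESeq2 1.42.0 and limma 3.58.1 (voom, and limma on the deposited VST values), RLE size factors, other filters, a replicate block, a score of the chromosome 1 interval and leaving out each library were alternatives. The edgeR test was tested on simulated data first. The filter on 4 groups keeps genes counted in a single WT spleen library, and a filter by tissue was added after the data were seen.

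The members and gene lists were chosen with earlier results of these data known. All 9 receptors are named. Of the other receptors, ligands and signalling genes, the 5 with the lowest adjusted p in each direction between tissues are named, and for each receptor the 2 genes with the highest correlation among those averaging 50 counts or more. 1 receptor gene that this rule names and 2 genes of the marker lists are not reported here, and the marker sums leave the latter out. Splenic cDC1s were not analysed here.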

Additional observations from a re-analysis of the deposited data

Results flagged for a closer look

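The change of Ccr1 from BM to spleen passed the threshold for a difference between genotypes, in a test whose WT spleen arm is 1 library with no spread of its own. The genotype by tissue term was -2.905 on the log2 scale (adjusted p = 0.0222 in edgeR's quasi-likelihood test). All 3 WT BM libraries were below the WT spleen library and all 3 DNGR-1 KO BM libraries were above both DNGR-1 KO spleen libraries. The term cannot be fitted without that library. It was negative in all 15 alternatives, from -3.42 to -2.52, and passed the threshold in 8 of them, with adjusted p-values from 4.17e-04 to 0.123.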

How the results depend on the processing

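No receptor gene was called between genotypes in BM under any setting tried. Over all genes, 11 were called with DESeq2, 10 with no filter on low counts and 1 with the congenic interval left out, in place of 4, and 2 to 15 when 1 library was left out. The sign in BM turned for Ccr7 without WT sample 2 (-0.40) or DNGR-1 KO sample 3 (-0.44) and for Ccr9 without DNGR-1 KO sample 2 (-0.13), and leaving out 1 library gave at most 0.56 and 0.47. Between tissues it turned for Ccr1 with limma-voom (-0.14), in DNGR-1 KO libraries alone (-1.09) and without WT spleen (-1.09), and for Ccr2 in the latter settings (-0.28 in both), where leaving out 1 library gave at most 0.81 and 0.63.

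Between tissues, DESeq2 called 4094 genes in place of 2479, and nothing is read from the call of Cxcr5 here either. In DNGR-1 KO libraries alone 1336 genes were called, Ccr7, Cxcr3 and Cxcr6 among them, with 1 other receptor, 2 ligands and 2 signalling genes. At least 10 counts in every library left 2 ligands. Leaving out 1 library gave 1584 to 3118 genes, 3 to 5 ligands and 2 to 7 signalling genes. Ccr7, Cxcr3 and Cxcr6 passed each time. For the genotype by tissue term, 2233 genes were called with DESeq2, 0 genes and 0 receptors with limma-voom, 167 genes with at least 10 counts in every library, and 767 to 2677 genes and 0 to 1 receptors when 1 library was left out. The highest counts came without DNGR-1 KO spleen sample 1 (2677) or 2 (2425).

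Same-numbered BM libraries had correlations of 0.10, 0.099 and -0.081 in their deviations from the group means, and although libraries of different groups shared hosts, no source says that the numbers mark them, so the block is given as an alternative. With the replicate block, 1004 genes, 3 receptors, 2 ligands and 1 signalling gene were called between tissues, with Cxcr4 at an adjusted p of 0.0916 in edgeR, and 596 genes and 0 receptors for the genotype by tissue term, with Ccr1 at 0.123. In BM the block called 0 receptors.

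Of all results and settings, 566 kept direction and side of the threshold, 57 no longer passed or had lower counts, 10 newly passed or had higher counts, 8 turned and 1 moved by more than the spread. With a prior count of 0.5 the log2 CPM difference of Cxcr5 between tissues was 8.22. The single WT spleen library and low counts of Cxcr5, Cxcr6 and Cxcr4 limit precision. The genotype by tissue fit without WT spleen could not be made.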

Other observations

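Among the receptor genes outside the 9, Ccrl2, an atypical receptor that binds chemerin, had 3.0 to 5.01 CPM in BM, 48.6 CPM in WT spleen and 18.6 and 0.127 CPM in DNGR-1 KO spleen samples 1 and 2. Some were counted almost only in a single library. Ccr3, a receptor of eosinophils, had 16.7 CPM in DNGR-1 KO spleen sample 2, 0 in the other spleen libraries and at most 1.6 CPM in BM. Ccr6, the receptor for CCL20, had 10.9 CPM in DNGR-1 KO spleen sample 1, 0 in the other spleen libraries and at most 0.414 CPM in BM. These genes were named after their values were seen, and no test is given for them.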
